A study of Mus musculus with 13 samples.

Results

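Fgf21, Gdf15, Angptl6 and Igfbp1, which encode secreted factors, and Klb and Fgfr1, which encode the receptor of FGF21, were followed across white adipose tissue (WAT) and brown adipose tissue (BAT). These 6 genes were found by matching the RefSeq accession of each array probe to their symbols, among 19752 named genes. They carry 8 probes, 3 of them on Fgfr1. All 6 were among the 24471 features tested.

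The arrays come from male C57BL/6J mice, wild type or carrying the mAP::Fv2E-PERK transgene. Fv2E-PERK fuses the kinase of PERK, a sensor of endoplasmic reticulum stress, to a domain that the ligand AP20187 pairs up. Transgenic mice were injected intraperitoneally with AP20187 at 100 ng/g or with its vehicle, and tissue was taken after 12 h. The treatment protocol speaks of muscle, although each sample is labelled WAT or BAT. The 5 groups were untreated wild-type WAT (3 arrays), transgenic WAT with vehicle (2) or AP20187 (3), and transgenic BAT with vehicle (2) or AP20187 (2). No array here is of wild-type mice given AP20187 or of wild-type BAT. The labels do not spell out the promoter that mAP stands for, and they do not say whether each array is a separate animal. The p-values therefore cover the spread among these arrays, which may be technical. In bulk tissue, fewer cells of a type and less RNA per cell cannot be told apart.

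PERK phosphorylates the translation factor eIF2alpha. This slows protein synthesis in general but favours translation of the transcription factor ATF4, which with CHOP (the product of Ddit3) turns on stress genes. FGF21 is a hormone of fasting and mitochondrial or endoplasmic reticulum stress that is made mainly in liver and also in fat and muscle, and it signals through FGFR1 bound to the co-receptor beta-klotho, the product of Klb. GDF15 is a stress hormone of the TGF-beta family whose receptor, GFRAL with RET, lies in the hindbrain. ANGPTL6 is an angiopoietin-like secreted protein, and IGFBP1 binds insulin-like growth factors and is made mainly in liver.

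The promoters of both hormone genes are shown because ATF4 and CHOP act through short sequence elements near such start sites. Both are the 250 bases before the RefSeq start site (build GRCm38.p6, 5′ to 3′ on the gene's minus strand). Capitals mark the bases that match a motif searched for. The Fgf21 stretch is chr7:45615491-45615740 and the Gdf15 stretch, at the first of 2 annotated start sites, is chr8:70632457-70632706.
Fgf21: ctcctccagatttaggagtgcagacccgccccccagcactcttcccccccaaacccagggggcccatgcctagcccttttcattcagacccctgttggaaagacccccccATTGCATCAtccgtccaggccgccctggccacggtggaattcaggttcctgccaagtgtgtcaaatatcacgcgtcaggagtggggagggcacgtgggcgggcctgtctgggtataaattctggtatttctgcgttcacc
Gdf15: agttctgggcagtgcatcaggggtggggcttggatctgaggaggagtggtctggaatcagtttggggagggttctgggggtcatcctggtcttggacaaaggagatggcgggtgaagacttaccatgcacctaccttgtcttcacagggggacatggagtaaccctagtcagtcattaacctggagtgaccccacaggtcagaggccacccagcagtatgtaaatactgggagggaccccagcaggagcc
The motifs were searched on both strands, from 250 bases before to 50 after each start site. TGATGNAA, the C/EBP-ATF composite element, matched Fgf21 on the strand opposite to the gene at -139 to -132. TGCAAT, a C/EBP core letter string, matched on that strand at -140 to -135 and overlaps the first match. The longer endoplasmic reticulum stress element had no match in Fgf21. No motif matched in the other 5 promoter entries, which belong to Gdf15 (2 start sites), Angptl6, Igfbp1 and Klb. Over all 32851 promoters of the same length, 3.97% held TGATGNAA, 8.40% held TGCAAT and 0.119% held the stress element. A match is a string of letters and not a measured binding site.

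Levels below are log2 processed signals from which the array's own 75th percentile was subtracted, and no level is set against that of another probe. The arrays differed in ways that touch these genes. Between 57.9 and 64.0% of spots were well above background on WAT arrays of wild-type and vehicle mice, and 46.4 to 51.5% in the other groups. WAT AP20187 array 1 carried epididymal transcripts (mean of 10 markers 8.01, array 2 -0.20, all other assigned arrays -5.48 to -3.50) and had the lowest endothelial mean (0.58, others 2.70 to 3.36), and AP20187 differences in WAT are also given without it. WAT vehicle array 2 had the highest mean of 9 measured hepatocyte markers (3.91, other WAT arrays -0.73 to 1.37, BAT -2.74 to -2.44). BAT vehicle array 2 had less skeletal muscle signal (mean of 10 markers 1.08) than the other BAT arrays (3.64 to 5.36). Ucp1, which defines brown adipocytes, lay at 9.87 to 10.63 in BAT and at or below -3.41 in WAT. A 13th array, titled BAT but named WAT as source, was left out of the groups.

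In WAT, Fgf21 measured -0.61, 0.40 and 0.44 on the 3 AP20187 arrays, against -4.67 and -3.87 with vehicle. The wild-type arrays read -3.90, -4.47 and -5.09, the last not well above background. Every AP20187 array lay above every vehicle and wild-type array, and vehicle and wild type overlapped. The difference between AP20187 and vehicle was 4.35 log2 units (20.4-fold, SE 1.12). It did not pass limma's threshold (adjusted p = 0.0747), and without AP20187 array 1 it was 4.69 (adjusted p = 0.0548). Within the slide that held vehicle array 2 and all AP20187 arrays the difference was 3.95. Against wild type Fgf21 rose by 4.56 (23.6-fold, SE 1.002, adjusted p = 0.0331). This call was lost under 12 of 27 alternatives, among them leaving out any 1 wild-type array (4.26 to 4.85, adjusted p = 0.108 to 0.129), AP20187 array 2 (4.40, 0.0854) or AP20187 array 3 (4.38, 0.0722). Without AP20187 array 1 it was 4.90 (adjusted p = 0.0248). All wild-type arrays lie on another slide than the AP20187 arrays, with 1 vehicle array on each, and with slide as a fixed block the difference was 3.76 (adjusted p = 0.943). AP20187 versus vehicle and AP20187 versus wild type share the AP20187 arrays. Of 9 measured pancreatic acinar markers, from another tissue that makes FGF21, 3 or 4 were above background on these AP20187 arrays and 3 to 5 on the other WAT arrays. Their mean was -3.84 to -3.53 on the AP20187 arrays and -4.40 to -4.05 on the others. That mean includes readings below background, which differed between these arrays as well. Pnlip, on that list and well above background on no array, read -5.47 to -4.69 with AP20187 and -7.31 to -6.67 on the other WAT arrays. Cela1, an elastase on that list, read 0.11, 1.64 and 2.19 with AP20187, 0.68 and 1.19 with vehicle and 0.37 to 0.82 in wild type. Of 10 markers of skeletal muscle, which also makes FGF21, 9 were above background on AP20187 array 2. Their mean there was -0.80, against -3.55 to -2.72 on the other WAT arrays. Without AP20187 array 2 the Fgf21 difference from vehicle was 4.19. The part of either marker list in the Fgf21 difference was not tested.

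In BAT, Fgf21 measured -1.14 and 3.18 with AP20187 and -0.21 and -2.23 with vehicle. The AP20187 arrays lay far apart, and the lower one fell between the vehicle arrays. The difference was 2.24 (4.73-fold, SE 1.23, adjusted p = 0.767 by limma). It was 4.40 without AP20187 array 1 and 0.079 without AP20187 array 2. With vehicle, BAT was 3.05 above WAT (8.28-fold, SE 1.23, adjusted p = 0.107), with groups that did not overlap. That difference was 2.04 without BAT vehicle array 2. It passed without BAT AP20187 array 1 or 2 (adjusted p = 0.0208 for each), which changes the shared spread and not the groups compared. All BAT arrays lie on 1 slide and no WAT array does, so tissue and slide cannot be told apart in any value that sets BAT against WAT.

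**Figure D1:**
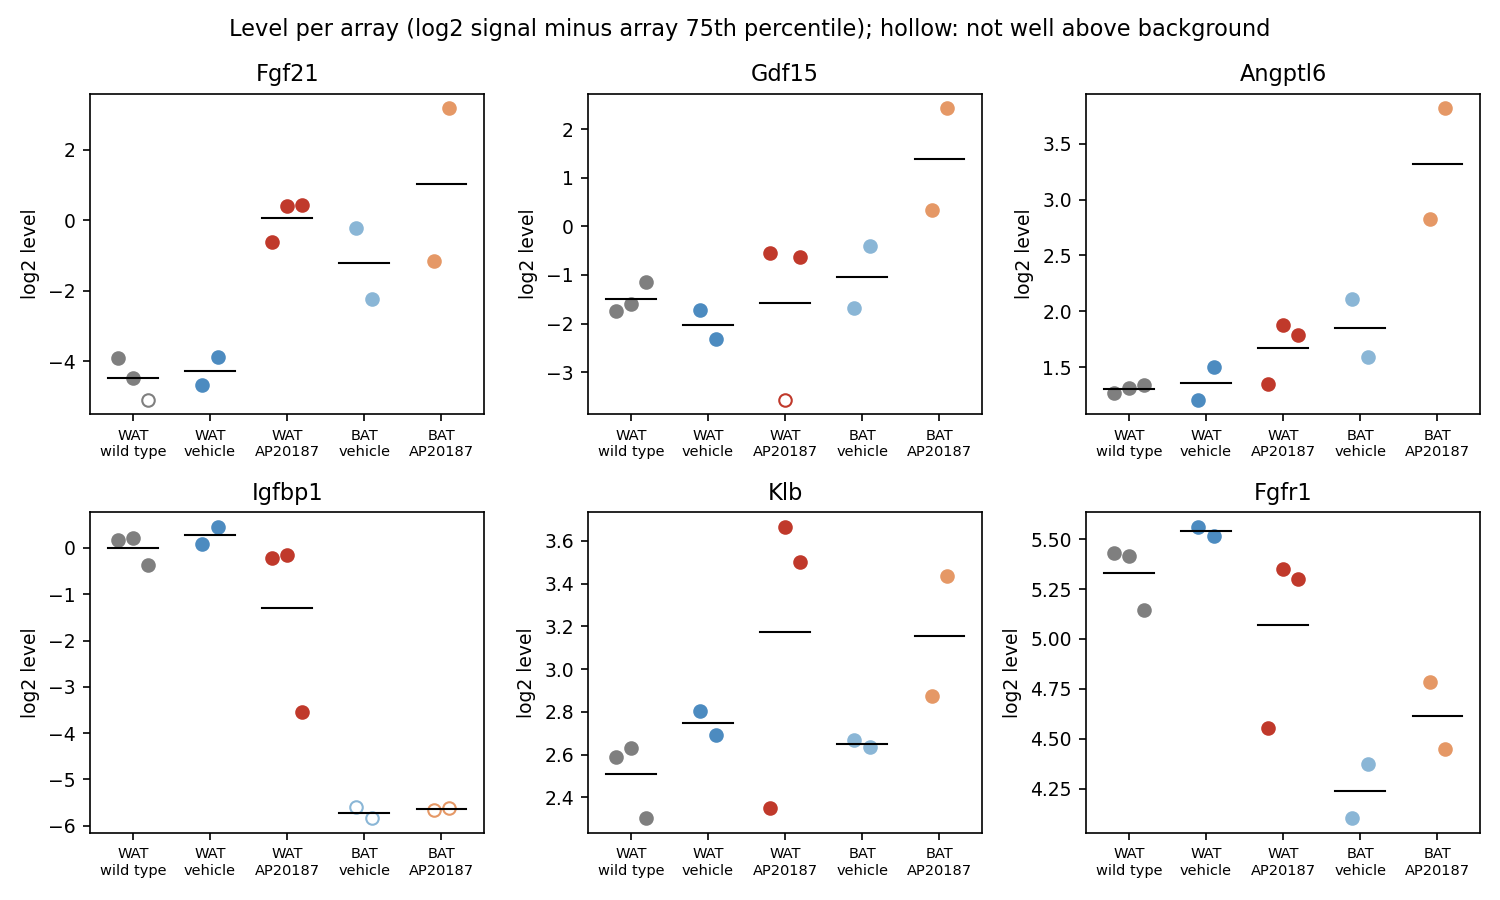
Log2 level (processed signal scaled to the array's 75th percentile) of each gene on each of 12 arrays, by group. Each point is 1 array, hollow where the probe was not well above background, and bars are group means; scales differ between panels. Fgf21 lies between -0.61 and 0.44 on the WAT AP20187 arrays and at or below -3.87 on other WAT arrays, and Igfbp1 is hollow on every BAT array.

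Gdf15 in WAT measured -0.55, -3.57 and -0.63 with AP20187, -1.73 and -2.32 with vehicle, and -1.74, -1.59 and -1.15 in wild type. AP20187 arrays 1 and 3 lay above all vehicle and wild-type arrays, whereas array 2 was the lowest of all and not well above background there. The difference from vehicle was 0.44 (SE 0.94, limma adjusted p = 0.797). It was -0.078 without array 1, -0.038 without array 3 and 1.43 without array 2 (adjusted p = 0.289). The spot of array 2 lay in no area of weak signal as defined here. The spots within 10 rows and columns of it, however, had a median 0.72 log2 units below that of the array. On the other arrays that value was -0.27 to 0.32. Its part in the Gdf15 reading was not tested. In BAT, Gdf15 measured 0.34 and 2.44 with AP20187 and -1.67 and -0.40 with vehicle. Both AP20187 arrays lay above both vehicle arrays. The difference was 2.43 (5.38-fold, SE 1.03, unadjusted p = 0.0439, adjusted p = 0.657 by limma), and it was 1.38 without AP20187 array 2. BAT and WAT with vehicle differed by 0.99 (SE 1.03, adjusted p = 0.544), and by 0.35 without BAT vehicle array 3 and 1.62 without BAT vehicle array 2.

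Angptl6 in WAT varied little, at 1.34, 1.87 and 1.78 with AP20187, 1.21 and 1.50 with vehicle and 1.27, 1.31 and 1.34 in wild type. AP20187 array 1 lay between the vehicle arrays. The difference was 0.31 (SE 0.31, limma adjusted p = 0.561), and 0.47 without array 1 (adjusted p = 0.340). In BAT it measured 2.82 and 3.82 with AP20187 and 2.11 and 1.59 with vehicle, without overlap. The difference of 1.48 (2.78-fold, SE 0.34) had the smallest p of the 6 genes in that tissue (rank 146 of 24471, unadjusted p = 0.00187) but did not pass (adjusted p = 0.313 by limma). It was 0.98 without AP20187 array 2 and 1.97 without array 1. Among the members of its family, 8 of which were tested, 0 passed after AP20187 in WAT (2.25% of all features) or BAT (0.00817%).

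Igfbp1 was well above background on every WAT array and on none of the 4 BAT arrays. It measured 0.17, 0.22 and -0.36 in wild-type WAT, 0.09 and 0.46 with vehicle, and -0.22, -0.16 and -3.54 with AP20187. In BAT it read -5.60 and -5.84 with vehicle and -5.66 and -5.62 with AP20187. The WAT and BAT levels did not overlap. With vehicle it was at least 14.8-fold lower in BAT than in WAT. This bound sets the WAT mean against the dimmest signal well above background on the BAT arrays. The limma adjusted p of 0.00281 is that of the measured difference, -6.00, and not of the bound. Igfbp1 passed the filter through WAT alone, so that test is no separate support for the direction. Hepatocyte markers differed in the same direction. In WAT 7 to 9 of 9 were well above background per array, and in BAT 2 of 9 were. Alb, which encodes albumin, read -5.62 to -5.30 in BAT. In WAT it read -0.04 to 5.82, highest on vehicle array 2, on all arrays but AP20187 array 3. On that array it read -6.08, from a spot in an area of weak signal. The part of these markers in the Igfbp1 difference was not tested. Within WAT, every AP20187 array lay below both vehicle arrays for Igfbp1. The difference was -1.58 (SE 0.87, adjusted p = 0.313), with array 3 far below the others, in no area of weak signal. Without array 3 the difference was -0.47 (adjusted p = 0.291), and without array 1 it was -2.12 (adjusted p = 0.148).

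Klb in WAT measured 2.35, 3.67 and 3.50 with AP20187, 2.80 and 2.69 with vehicle, and 2.59, 2.63 and 2.30 in wild type. AP20187 arrays 2 and 3 lay above all vehicle and wild-type arrays, and array 1, the array with epididymal transcripts, lay below both vehicle arrays. Relative to the array, the spots within 10 rows and columns of Klb had a median of -1.26 on AP20187 array 2. On the other arrays that value was -0.71 to 0.21. Its part in the Klb reading was not tested. The difference from vehicle was 0.43 (SE 0.37, limma adjusted p = 0.511). Without array 1 it was 0.84 and passed (SE 0.21, adjusted p = 0.0494). The difference from wild type also passed then (1.08, adjusted p = 0.0167, against 0.67 and 0.219 with array 1). Without that array 2256 of 24461 features passed against vehicle (550 with it) and 5343 against wild type (2171 with it). The mean of 8 adipocyte markers was also below both vehicle arrays on array 1 and above all vehicle and wild-type arrays on arrays 2 and 3, at 6.55, 8.49 and 7.98 with AP20187, 7.54 and 7.49 with vehicle and 7.25 to 7.60 in wild type, and its part in the Klb values was not tested. In BAT, Klb measured 2.88 and 3.44 with AP20187 and 2.67 and 2.64 with vehicle. The groups did not overlap, at a difference of 0.50 (SE 0.40, adjusted p = 0.885). Between vehicle BAT and vehicle WAT the Klb difference was -0.0945 (SE 0.40, adjusted p = 0.900).

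Fgfr1 on its brightest probe measured 4.56, 5.35 and 5.30 in WAT with AP20187, 5.56 and 5.52 with vehicle, and 5.43, 5.41 and 5.14 in wild type. All AP20187 arrays lay below both vehicle arrays but overlapped wild type. The difference from vehicle was -0.47 (SE 0.26, limma adjusted p = 0.315), and -0.21 without array 1. In BAT, Fgfr1 measured 4.78 and 4.45 with AP20187 and 4.10 and 4.38 with vehicle, a difference of 0.38 (SE 0.28, adjusted p = 0.876). With vehicle it was 2.47-fold lower in BAT than in WAT (-1.30, SE 0.28, adjusted p = 0.0118). This call was lost without WAT vehicle array 1 (-1.28, adjusted p = 0.0614), WAT vehicle array 2 (-1.32, 0.0532) or BAT vehicle array 2 (-1.17, 0.0755).

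The 3 Fgfr1 probes did not give the same tissue difference. Between vehicle BAT and vehicle WAT it was -1.30 on A_55_P2057777, the probe used, -1.13 on A_55_P1967022 and 0.075 on A_55_P1967015. With the mean of the probes it was -0.79 (limma adjusted p = 0.194). After AP20187 in WAT the differences were -0.47, -0.69 and -1.35 in the same order. The last includes a reading of -3.31 on AP20187 array 3, from a spot in an area of weak signal. The other AP20187 readings of A_55_P1967015 were 0.19 and 1.01, against 0.66 and 0.64 with vehicle. Those of A_55_P1967022 were 0.57 on AP20187 array 1 and 1.66 and 1.59 on the others, against 2.19 and 1.74 with vehicle.

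**Figure D2:**
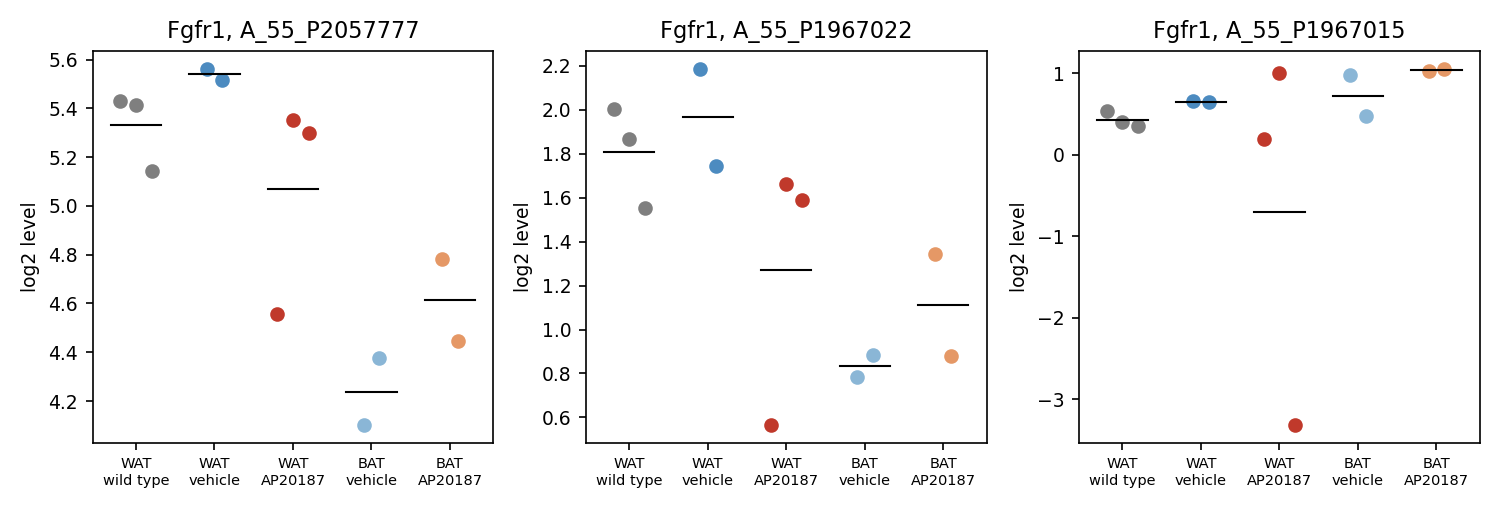
Log2 level of the 3 Fgfr1 probes on each of 12 arrays, by group; each point is 1 array and bars are group means. BAT lies below WAT vehicle on A_55_P2057777 and A_55_P1967022 and not on A_55_P1967015, where 1 WAT AP20187 array reads -3.31.

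Over the 6 genes together, 0 passed after AP20187 in WAT, where 2.25% of all features passed (1.75% higher and 0.494% lower), and 0 passed in BAT, where 0.00817% did. At an unadjusted p under 0.05, 1 of 6 (Fgf21) was past the threshold in WAT against 22.3% of features, and 2 of 6 (Gdf15 and Angptl6) in BAT against 7.36%. The median change of the 6 was 0.37 in WAT against 0.15 over all features, and 0.99 in BAT against -0.042, with Igfbp1 below background on all BAT arrays. The BAT groups did not overlap for 4 of 6 (Gdf15, Angptl6, Klb and Fgfr1), all higher, where 15.8% of all features were higher without overlap. In WAT it was 1 higher, Fgf21, against 26.2%, and 2 lower, Igfbp1 and Fgfr1, against 12.3%.

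The change differed between the tissues for 0 of 6 in limma's test of the difference, which also called 0 of all features. At an unadjusted p under 0.05 it was 1 of 6, Angptl6, against 16.5% of features. The change was 1.16 larger in BAT for Angptl6 (SE 0.46, adjusted p = 0.257) and 1.99 larger for Gdf15 (SE 1.40, adjusted p = 0.529). Without BAT AP20187 array 2 these were 0.67 and 0.94, and without WAT AP20187 array 2 that of Gdf15 was 0.998, without BAT AP20187 array 1 3.04. For Fgf21 the difference, BAT minus WAT, was -2.11 (SE 1.66, adjusted p = 0.582), 0.056 without BAT AP20187 array 1 and -4.27 without BAT AP20187 array 2.

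Between vehicle and wild-type WAT 0 of 6 passed (0.0327% of all features), and 0 had an unadjusted p under 0.05 (5.03%). Klb and Fgfr1 were higher with vehicle without overlap (19.5% of all features), by 0.24 and 0.21. In AP20187 against wild-type WAT 1 of 6 passed, Fgf21, where 8.87% of features did and 7.21% were higher and passed. The same 1 had an unadjusted p under 0.05 (28.6%). In vehicle BAT against vehicle WAT 2 of 6 passed, Igfbp1 (below background in BAT) and Fgfr1, both lower in BAT, where 23.4% of features did (14.3% higher and 9.17% lower). With Fgf21, 3 of 6 had an unadjusted p under 0.05 (36.5%). The BAT and WAT groups did not overlap for any of the 6, with 3 higher in BAT against 39% of features and 3 lower against 30%.

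**Figure D3:**
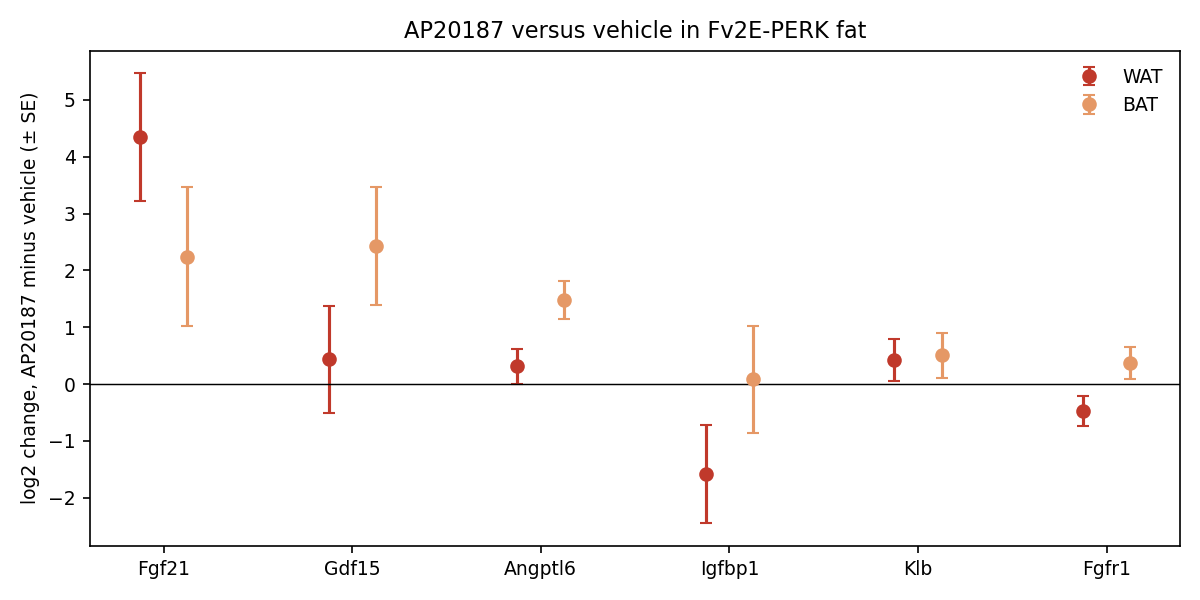
Log2 change of each gene with AP20187 minus vehicle, with its limma standard error, in WAT (3 against 2 arrays) and BAT (2 against 2). Fgf21 in WAT stands highest at 4.35 ± 1.12, and Gdf15 and Angptl6 stand higher in BAT than in WAT, with 0 of 12 values past the threshold; Igfbp1 in BAT is below background.

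The factors that bind the hormone genes were measured beside them. Atf4 read 6.71, 7.12 and 7.05 in WAT with AP20187 against 6.05 and 6.06 with vehicle. All AP20187 arrays lay above vehicle, and the difference was 0.90 (SE 0.39, limma adjusted p = 0.221). In BAT Atf4 read 7.47 and 8.43 against 7.71 and 6.35, with overlap. Ddit3 read 3.25 and 4.42 in BAT with AP20187 against 2.40 and 2.09 (1.59, SE 0.47, adjusted p = 0.447), and 1.09, 1.55 and 2.18 in WAT against 1.01 and 1.47. For Ddit3 the BAT groups did not overlap and the WAT groups did. Of the 12 factors on this list 0 passed after AP20187 in either tissue, where 2.25% of all features passed in WAT and 0.00817% in BAT. The list medians were 0.18 in WAT and 0.21 in BAT, against 0.15 and -0.042 over all features. Between vehicle BAT and WAT 3 of 12 passed, all higher in BAT, where 14.3% of all features were higher and passed: Ppara, a fatty acid sensor that drives Fgf21 in liver (28.8-fold, SE 0.99 log2 units, adjusted p = 0.00871), Nr1d1, a clock repressor (5.62-fold), and Egr1, an immediate early factor (4.46-fold). The Nr1d1 call was lost without WAT vehicle array 2 (1.70 log2 units, adjusted p = 0.169) or either BAT vehicle array, and the Egr1 call without WAT vehicle array 1 (1.79, 0.130) or either BAT vehicle array.

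Among other FGF ligands, Fgf2, a heparin-bound growth factor, fell in WAT after AP20187. It read -4.10, -3.67 and -3.64 with AP20187, of which 1 array was well above background, against -2.27 and -2.44 with vehicle and -2.45, -1.91 and -2.28 in wild type. The groups did not overlap, and the difference from vehicle was -1.45 (2.72-fold lower, SE 0.24, limma adjusted p = 0.0458). The call on Fgf2 was lost under 17 of 27 alternatives, among them leaving out WAT vehicle array 1 or 2, AP20187 array 2, or any wild-type or BAT array (adjusted p = 0.0615 to 0.258). Fgf2 was the only 1 of 11 tested ligands to pass there, where 2.25% of all features did. Of the receptors and co-receptors 0 of 7 passed, and of the adaptors and feedback genes 0 of 17. The median change of the adaptors and feedback genes in WAT was 0.43, against 0.15 for all features. The smallest p among them was that of Frs2, the docking protein of FGF receptors (0.62, SE 0.15, adjusted p = 0.062). Against wild type Frs2 rose by 0.59 (adjusted p = 0.0338), a call lost under 15 of 27 alternatives, among them leaving out any wild-type or WAT vehicle array, AP20187 array 2 or AP20187 array 3 (adjusted p = 0.0506 to 0.134). In BAT after AP20187 0 genes of these lists passed, where 0.00817% of all features did. Fgf23 and Fgf1 had the smallest limma p of the ligands, at -0.98 and -0.94 (adjusted p = 0.499 and 0.598).

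Partners of the other secreted factors were measured in the same way. Gfral, the GDF15 receptor, was well above background on 0 of 12 arrays and was not tested. Ret, its signalling partner, read -0.83 to -0.13 on all WAT arrays and -5.33 to -3.04 in BAT, where 1 of 4 arrays was above background. Tested were 11 genes of the GDF15 receptor and TGF-beta ligand list and 12 of the IGF axis. So were 8 angiopoietin-like genes and 8 other stress-linked secreted factors. Of all these 0 passed against vehicle in either tissue, where 2.25% of all features passed in WAT and 0.00817% in BAT. Igf2, a growth factor, was not well above background on any AP20187 array in WAT and was at least 1.83-fold lower there than with vehicle. Its limma adjusted p of 0.0794 is that of the measured difference and not of the bound. Metrnl, a secreted factor of fat and muscle, was 0.90 higher in AP20187 than in wild-type WAT (adjusted p = 0.0461), a call lost under 21 of 27 alternatives, which include leaving out any 1 of the 12 arrays (adjusted p = 0.051 to 0.167).

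Genes of the same lists differed between BAT and WAT with vehicle, where 14.3% of all features passed as higher in BAT and 9.17% as lower. Of the FGF ligands 5 of 11 were lower in BAT and 0 higher (list median -1.02, all features 0.10). Among those lower, Fgf2 and Fgf13 were well above background on neither BAT vehicle array. Fgf10, a growth factor of fat progenitors, read -3.05 and -2.43 in BAT and 1.70 and 1.77 in WAT (22.3-fold lower in BAT, limma adjusted p = 4.1e-04). Of the IGF axis 7 of 12 were lower and 0 higher (median -1.85). Among them were Igf1 (7.66-fold), Igfals, which encodes a carrier of IGF1 in blood (26.9-fold), and Igfbp2 (at least 11.8-fold). Igfbp1 and Igfbp2 were well above background on neither BAT vehicle array. Of the GDF15 receptor and TGF-beta ligand list 4 of 11 were lower and 0 higher (median -1.74), among them Tgfb3, a TGF-beta isoform (4.58-fold), and Ret, which was well above background on 1 of the 2 BAT vehicle arrays. Of the adaptors and feedback genes 2 of 17 were higher, Egr1 and Fos, and 1 was lower, Il17rd, a feedback inhibitor of FGF signalling (1.73-fold, median of the list -0.034). The Fos and Il17rd calls were lost without WAT vehicle array 1 (adjusted p = 0.128 and 0.119), WAT vehicle array 2 (0.0878 and 0.0884) or BAT vehicle array 2 (0.170 and 0.162). Of the other secreted factors 3 of 8 were lower (median -1.25). Stc2, a secreted glycoprotein of the stress response, was at least 24.3-fold lower in BAT, where neither vehicle array was well above background. Its limma adjusted p of 5.83e-05 is that of the measured difference, -5.48, and not of the bound. Of the receptors Fgfr4, the main FGF receptor of liver, was 10.3-fold lower in BAT (adjusted p = 0.0457), a call lost without any 1 array other than the WAT AP20187 arrays (adjusted p = 0.0588 to 0.220). Fgfr2 was 1.70-fold higher (adjusted p = 0.0374), and its call was lost without WAT vehicle array 2, wild-type array 1 or any BAT array. With the mean of the Fgfr2 probes the difference was 0.40 log2 units (limma adjusted p = 0.441). From the authors' value table it was -0.034, where the median of all features was -0.64. Of the 8 angiopoietin-like genes 0 passed. With vehicle the hepatocyte marker means given above were also lower in BAT. So were those of 8 fibroblast and mesothelial markers (3.98 and 3.83 in WAT, -0.69 and -0.81 in BAT) and of 7 measured macrophage markers (3.03 and 3.12 against 0.54 and 1.14). The part of these cell types in the list differences was not tested.

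**Figure D4:**
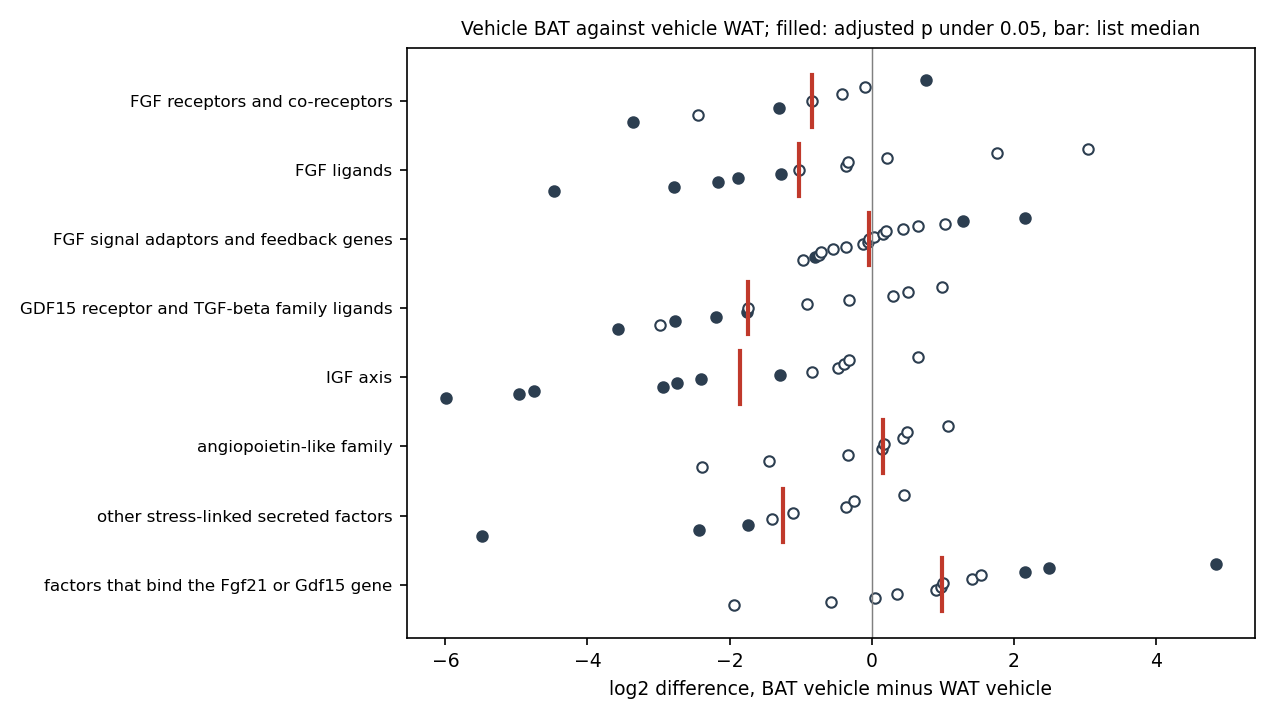
Log2 difference of vehicle BAT minus vehicle WAT for every tested gene of 8 lists; each point is 1 gene, filled where limma's adjusted p was under 0.05, and the red bar is the list median; genes below background in BAT, such as Igfbp1 and Stc2, stand at their measured difference. The IGF axis has the lowest median, at -1.85, and the factors that bind the Fgf21 or Gdf15 gene the highest, at 0.99.

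The named genes whose level followed that of each hormone most closely over the 12 arrays were listed as a description. For Fgf21 these were Nol11 (Pearson r = 0.98), Cbwd1 (0.98), Pwp2 (0.97), Tcf12 (0.97) and Abitram (0.97). For Gdf15 they were Twistnb (0.88), Extl1 (0.87), Faap100 (0.87), Suz12 (0.86) and Sesn2 (0.85). The arrays share 3 slides, 2 tissues and the scaling, and such r were chosen as the highest of 15090 named features. Between Fgf21 and Gdf15 themselves r was 0.49, and between Fgf21 and Angptl6 it was 0.77.

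**Figure D5:**
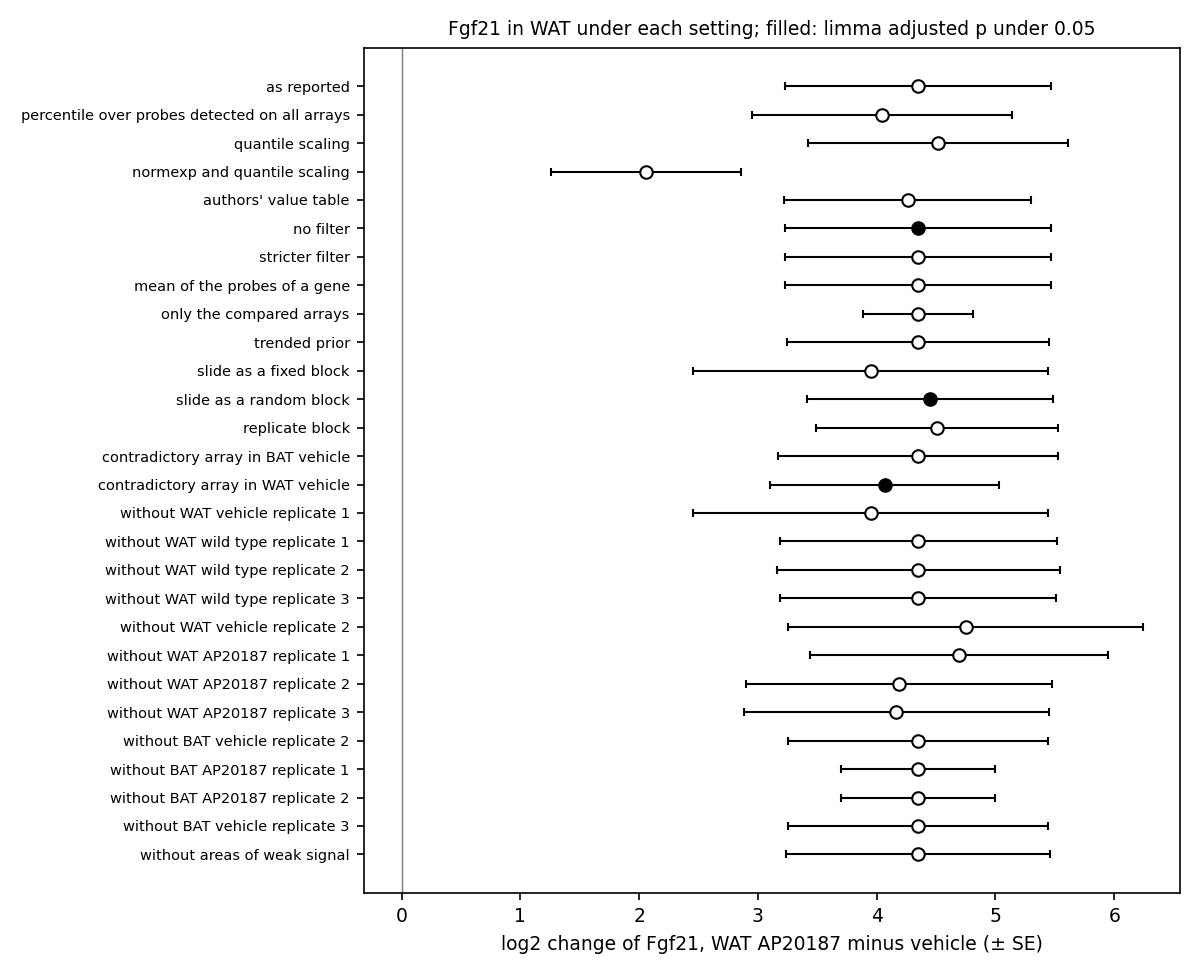
Log2 change of Fgf21 in WAT, AP20187 minus vehicle, with its standard error, as reported and under 27 alternatives (vertical axis); filled points have a limma adjusted p under 0.05. The change lies between 2.06 and 4.75 throughout, and 3 alternatives pass.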

How the data were processed

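Arrays were 1-colour (Cy3) Agilent, per the labels' protocols. The deposited processed signals are intensities, per the file headers background-subtracted and spatially detrended by Feature Extraction (version 10.7.1.1 in the submitters' processing notes). The authors' value table holds the same intensity for 99.0 to 99.2% of its values (within 0.1%).

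Here control and outlier spots were dropped, spots of a probe averaged, and log2 signals scaled to each array's 75th percentile. Of 55681 probes, 26056 matched 1 gene (RefSeq, GRCm38.p6), 0 several and 29625 none. Probes were kept that were well above background throughout at least 1 group (32630), and the brightest probe stood for its gene. A single limma 3.58.1 model under R 4.3.3 (lmFit, eBayes, Benjamini-Hochberg over 24471 features, threshold 0.05) held the 12 arrays of 5 groups, and the procedure was tested on simulated data. The number of arrays limits the precision.

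The genes, lists and tests were chosen with earlier results of these data known. Named are the 6 genes, list genes past the threshold or among the 3 smallest p, and the 5 genes most like Fgf21 and Gdf15. Alternatives were quantile scaling, with or without normexp (offset 50), another percentile base, the value table, no or a stricter filter, the mean of probes, fewer arrays, a trended prior, slide and replicate blocks and use of the contradictory array. Leaving out areas of weak signal was chosen after seeing the data. For "at least N-fold", the dim probe was set, on each array, to the dimmest signal that was well above background, or to its own signal where that was higher.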

Additional observations from a re-analysis of the deposited data

Results flagged for a closer look

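The Fgfr1 differences between AP20187 and vehicle had opposite signs in the tissues, and neither passed limma's threshold (WAT -0.47, adjusted p = 0.315; BAT 0.38, adjusted p = 0.876). On the brightest probe, which gave these values, all 3 WAT AP20187 arrays lay below both vehicle arrays. Both BAT AP20187 arrays lay above both vehicle arrays on it. On A_55_P1967022 the WAT groups were also apart, but the BAT readings overlapped (1.34 and 0.880 with AP20187, 0.785 and 0.882 with vehicle). The difference of the changes, BAT minus WAT, was 0.85, and limma's test of it did not pass (adjusted p = 0.319). Without WAT AP20187 array 1 the WAT difference was -0.21. On the probe A_55_P1967015 the WAT AP20187 readings outside the area of weak signal were 0.19 and 1.01, on either side of vehicle (0.66 and 0.64).

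On the array with contradictory labels, which entered no group, Klb read 2.92 and Fgfr1, on its brightest probe, 5.62. Both are above every wild-type and vehicle array of either tissue. The other Fgfr1 probes did not show this. A_55_P1967022 read 1.91 there, below 2.19 on WAT vehicle array 1, and A_55_P1967015 read 0.35, below both WAT vehicle arrays (0.66 and 0.64).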

How the results depend on the processing

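Over the values of the 6 genes under 27 alternatives, 907 kept direction and side of the threshold, 28 turned sign, 10 newly passed and 18 no longer did. In WAT with AP20187 versus vehicle the number of genes passing was 1 with no filter, slide as a random block, the contradictory array in WAT vehicle, or (Klb) without AP20187 array 1. Fgf21 passed with no filter (4.35, adjusted p = 0.0315), slide as a random block (4.45, 0.0446; consensus correlation -0.25) and the contradictory array in WAT vehicle (4.07, 0.0335). Its lowest value, 2.06, came with normexp and quantile scaling, and leaving out single arrays gave 3.95 to 4.75. For Gdf15 there, leaving out single arrays gave -0.078 to 1.43.

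In AP20187 versus wild type the number was 0 with quantile scaling, normexp and quantile scaling, the authors' value table, only the compared arrays, slide as a fixed block, the replicate block and the BAT vehicle group with the contradictory array added, 4 with slide as a random block, and 0 to 2 without single arrays. In BAT versus WAT with vehicle it was 1 with the value table or the mean of probes, 0 with the contradictory array in BAT vehicle, and 1 to 3 without single arrays. Slide as a fixed block gave no BAT versus WAT value.

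Signs turned elsewhere, all short of the threshold. For Igfbp1 in BAT, below background throughout, AP20187 minus vehicle was -0.038 with quantile scaling, -0.67 with the replicate block, -1.75 once BAT vehicle held the contradictory array and -0.038 to 0.20 without single arrays. With that array in BAT vehicle, Fgfr1 in BAT was -0.083, and the difference of changes was -0.165 for Igfbp1 and -0.011 for Klb. Vehicle minus wild type was -0.19 for Fgf21 and -0.099 for Angptl6 with slide as a fixed block, -0.025 for Angptl6 with the other percentile and -0.033 with normexp and quantile scaling, and -0.23 for Igfbp1 with the replicate block. Without single arrays it was -0.19 to 0.61 for Fgf21 and -0.099 to 0.19 for Angptl6. AP20187 minus wild type for Gdf15 was 0.026 with quantile scaling, 0.11 with normexp as well, 0.070 from the value table, 0.50 with slide as a fixed block and -0.61 to 0.90 without single arrays, and for Angptl6 -0.013 with the other percentile. BAT minus WAT was -0.30 for Angptl6 and -0.034 for Fgfr2 from the value table, where the median of all features was -0.64, against 0.10 as reported. The difference of changes without single arrays was -4.27 to 0.056 for Fgf21 and -0.33 to 0.36 for Klb. The cause was not tested.

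Arrays of the same replicate number did not deviate together (correlations -0.22 to 0.105). With so few arrays in a group, this cannot tell whether the numbers pair them. With the replicate block Fgf21 in WAT was 4.51 (adjusted p = 0.105), and 0 features passed in that comparison (550 without it; 5131 had an unadjusted p under 0.05). The percentile base moved the median change of all features there from 0.15 to -0.16; on it 7 features rose and 226 fell, against 429 and 121. In AP20187 versus wild type 103 rose and 1021 fell on it, against 1764 and 407, and in BAT versus WAT with vehicle 2682 were higher and 3397 lower (490 and 3184 from the value table), against 3490 and 2244. Over all alternatives the features passing ran from 0 to 5512 in AP20187 versus vehicle in WAT (550 as reported), 0 to 22 in BAT (2), 0 to 61 in vehicle versus wild type (8), 0 to 13453 in AP20187 versus wild type (2171), 0 to 11152 in BAT versus WAT with vehicle (5734) and 0 to 399 for the difference of changes (0). Signal near background limits Fgf21 in untreated WAT, Gdf15 on WAT AP20187 array 2 and Igfbp1 in BAT.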

Other observations

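On the array with contradictory labels Fgf21 read -3.43, Gdf15 -2.25, Angptl6 1.30 and Igfbp1 -0.24, and Igfbp1 was well above background there, as on every WAT array and on no assigned BAT array. Its mean of 8 brown adipocyte markers was 0.021, within the range of the WAT arrays (-1.12 to 1.23) and below the BAT arrays (6.06 to 7.50).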
